A study of Mus musculus with 6 samples.

Results

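Transcripts of mitochondrial fatty acid oxidation and ketone body synthesis were followed in mouse liver. The 32 genes were chosen by symbol, as the enzymes, carriers and regulators of the pathway. All 32 were found among the 16638 genes of the deposited table, and all 32 reached the mean of 0.5 FPKM required for testing, as did 10745 genes in all. FPKM (fragments counted per kilobase of a gene, relative to library size) is a level per length. The sources used here do not give the length taken for each gene, so levels of different genes compare only roughly. The livers came from obese mice. The treated group of 3 had been given hippuric acid (HA), the glycine conjugate of benzoic acid, by injection into the abdomen at 60 mg/kg, 2 times a week for 5 weeks, and the control group of 3 is labelled PBS (phosphate-buffered saline). The sources used here do not give strain, sex, age, the way obesity was brought about or the schedule of the PBS injections. The labels do not say that each library is a separate animal, so p-values reflect only how far these samples vary, and part of that variation may be technical. The comparison of HA with PBS bears on how hippuric acid acts in steatotic liver disease, the subject of the study.

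A long-chain fatty acid enters the mitochondrion as a carnitine ester and is released inside as its CoA ester. Each turn of beta-oxidation then runs through an acyl-CoA dehydrogenase, a hydratase, a hydroxyacyl-CoA dehydrogenase and a thiolase, which shortens the chain and frees acetyl-CoA. The electrons of the first step pass through the electron transfer flavoprotein (ETF) and its oxidoreductase to ubiquinone. In the fasted liver much of the acetyl-CoA becomes ketone bodies, which other organs burn, and the nuclear receptor PPARA, which senses fatty acids, is known to raise most genes of the pathway.

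The libraries held 37921444 to 39908844 fragments, recovered from the FPKM steps. The rarest member, Acot9, was covered by 103 to 188 fragments and the most abundant, Acaa2, by 34150 to 41757. Hepatocyte markers were present in every library, and albumin (Alb) alone took 7.53 to 9.82% of the fragments with PBS and 12.5 to 14.7% with HA. FPKM is relative to the library total, so a larger Alb share leaves less for other genes. The median log2 fold change of all genes tested was -0.06, and 0.00 when libraries were scaled outside Alb. PBS replicate 1 held transcripts of adrenal cortex, 72.7 FPKM summed over 7 markers against 0.372 to 1.11 FPKM in the others, and of skeletal muscle, 49.9 against 0.309 to 0.987 FPKM over 8 markers. Without that library the median log2 fold change of the 32 genes was -0.49, against -0.49 with it.

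The log2 fold change was below 0 for all 32 genes, and its median was -0.49 on the log2(FPKM + 1) scale, against -0.06 over all genes tested, of which 62.8% were negative. In 26 of the 32 genes every HA value lay below every PBS value, which held for 19.2% of all genes tested. The HA values all lay above the PBS values in 0 members, against 6.47% of all genes. None passed the test across the transcriptome. By limma with Benjamini-Hochberg adjustment 0 members were lower and 0 higher, where 0.512% of all genes tested were lower and 0.289% higher. Those are 55 lower and 31 higher genes, a split that was 32 and 36 after median centring. At an unadjusted limma p under 0.05, 22 members were lower, against 13.1% of all genes, and 0 higher, against 4.61%. Both voom models on recovered fragments also called 0 members lower and 0 higher. The smallest adjusted p was 0.0672, for Hadh. By step, the median lay farthest below 0 in the carnitine shuttle (-0.68, 5 genes), with regulation and fuel choice close to it (-0.67, 3 genes). It lay nearest to 0 in electron transfer (-0.05, 3 genes), and no test of differences between steps was made.

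Together the genes took 0.958, 0.966 and 0.931% of the fragments in PBS replicates 1, 2 and 3 and 0.622, 0.790 and 0.775% in HA replicates 1, 2 and 3. Every HA share was below every PBS share. Of the fragments outside Alb the genes took 1.03 to 1.04% with PBS and 0.729, 0.903 and 0.908% with HA, so the shares stayed apart on that scale, where 20 of the 32 genes had every HA value below every PBS value (against 11.7% of all genes). Ppara, Acad9, Acaa2, Eci2, Acot9 and Acot13 overlapped on that scale but not in FPKM. HA replicate 1 stood lowest. It was the lowest of the 6 libraries in 24 of the 32 genes, where it was lowest for 26.9% of all genes tested, and its median over the members lay -0.68 from the PBS mean on the log2 scale, against -0.33 and -0.35 in HA replicates 2 and 3. In the carnitine shuttle the medians of HA replicates 1, 2 and 3 were -1.21, -0.38 and -0.40, and among the thioesterases and the CoA carrier they were -0.41, -0.43 and -0.38. With HA replicate 1 left out, the members' median was -0.38.

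**Figure D1:**
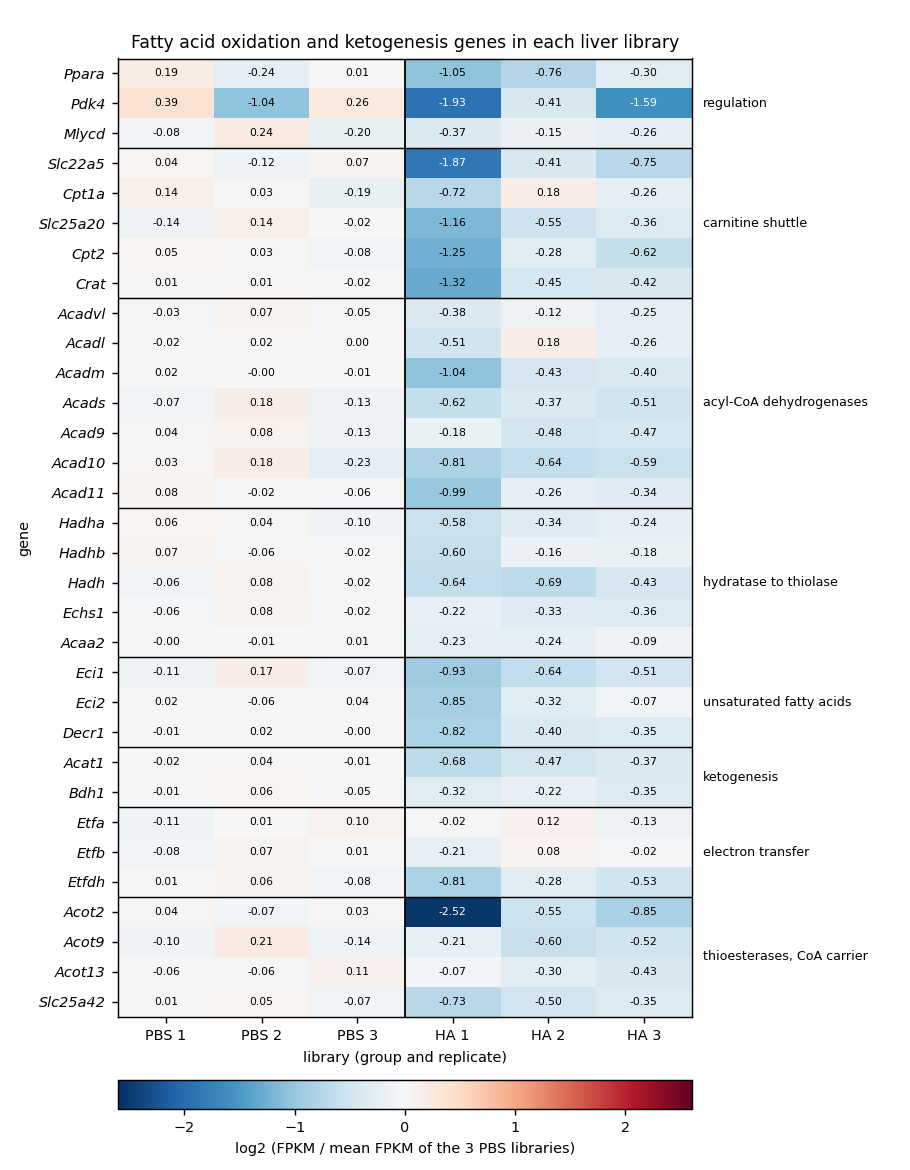
Each cell gives the log2 ratio of a gene's FPKM in 1 library (columns, by group and replicate) to the mean of the 3 PBS libraries, with genes in rows by step; blue is below and red above the PBS mean. The HA 1 column is the darkest, reaching -2.52 for Acot2, while Etfa and Etfb stay between -0.21 and 0.12 in all 6 libraries.

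Among the regulators, the receptor gene Ppara was 46.9, 34.9 and 41.3 FPKM in PBS replicates 1, 2 and 3 and 19.8, 24.2 and 33.4 FPKM in HA replicates 1, 2 and 3. The groups did not overlap, and PBS replicate 2 and HA replicate 3 were close to each other (log2 fold change -0.67, SE 0.20, limma adjusted p = 0.151). Scaled outside Alb, HA replicate 3 lay above PBS replicate 2, so the groups overlapped on that scale. Pdk4, the kinase that shuts off pyruvate dehydrogenase when fat is burned and a known PPARA target, was low in all libraries. It was 5.11, 1.89 and 4.67 FPKM after PBS and 1.02, 2.93 and 1.29 FPKM after HA. PBS replicate 2 lay below HA replicate 2, so its groups overlapped, and its 139 to 689 fragments varied within both groups (log2 fold change -0.82, SE 0.34, limma adjusted p = 0.272). Mlycd, which breaks down malonyl-CoA, the inhibitor of carnitine entry, was 26.7, 33.2 and 24.6 FPKM after PBS and 21.7, 25.4 and 23.6 FPKM after HA. Its highest HA value exceeded its lowest PBS value (log2 fold change -0.24, SE 0.13, limma adjusted p = 0.389).

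In the carnitine shuttle 4 of 5 genes had every HA value below every PBS value, against 19.2% of all genes tested. The exception was Cpt1a. Slc25a20, the carrier that takes acylcarnitine across the inner membrane, was 96.5, 117 and 105 FPKM in PBS replicates 1, 2 and 3 and 47.6, 72.8 and 82.5 FPKM in HA replicates 1, 2 and 3. All 3 HA values were below all 3 PBS values (log2 fold change -0.68, SE 0.20, limma adjusted p = 0.155). Cpt2, which returns the acyl group to CoA inside the mitochondrion, was 86.9, 86.1 and 79.6 FPKM after PBS and 35.4, 69.5 and 54.9 FPKM after HA, and HA replicate 1 was the lowest by a wide margin (log2 fold change -0.70, SE 0.22, limma adjusted p = 0.175). Crat, the carnitine acetyltransferase, was nearly the same in the 3 PBS libraries. It was 18.4, 18.3 and 17.9 FPKM after PBS and 7.29, 13.3 and 13.6 FPKM after HA (log2 fold change -0.68, SE 0.21, limma adjusted p = 0.171). Slc22a5, the carnitine importer of the plasma membrane, was also lowest in HA replicate 1, at 18.9, 16.9 and 19.1 FPKM after PBS and 5.02, 13.8 and 10.9 FPKM after HA (log2 fold change -0.92, SE 0.30, limma adjusted p = 0.185). Cpt1a, the liver form of the outer-membrane enzyme that sets the rate of entry, was 129, 120.2 and 103 FPKM after PBS and 71.5, 133 and 98.1 FPKM after HA. It differed from the other genes of the shuttle in that HA replicate 2 held the highest value of all 6 libraries (log2 fold change -0.26, SE 0.22, limma adjusted p = 0.565).

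PPARA is known to bind a direct repeat, AGGTCA and again AGGTCA with any 1 base between them. This repeat was searched on both strands, with up to 2 mismatches outside the spacer, in promoters of RefSeq on GRCm38.p6, which run from 250 bases before to 50 after a start site. Of the 32 genes 26 had an entry, with 27 promoters. A match lay in 3 of these (11.1%) and in 3.86% of all 32851 promoters, and no member promoter held the repeat with 1 mismatch or fewer (0 promoters). The letters TCAAGGTCA, bound by the receptor ESRRA and able to overlap the repeat, were in 0 member promoters and in 0.423% of all. The 3 promoters with a match are shown because their genes differ in the data, Slc25a20 and Echs1 with HA values below all PBS values and Etfa without. Capitals mark the match, read along the gene.
Slc25a20: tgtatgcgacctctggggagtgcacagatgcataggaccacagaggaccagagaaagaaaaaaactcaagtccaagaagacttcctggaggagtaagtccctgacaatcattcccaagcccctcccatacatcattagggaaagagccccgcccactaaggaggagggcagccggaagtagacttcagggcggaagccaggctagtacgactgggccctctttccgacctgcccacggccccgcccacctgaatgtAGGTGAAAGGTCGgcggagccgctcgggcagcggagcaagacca
Echs1: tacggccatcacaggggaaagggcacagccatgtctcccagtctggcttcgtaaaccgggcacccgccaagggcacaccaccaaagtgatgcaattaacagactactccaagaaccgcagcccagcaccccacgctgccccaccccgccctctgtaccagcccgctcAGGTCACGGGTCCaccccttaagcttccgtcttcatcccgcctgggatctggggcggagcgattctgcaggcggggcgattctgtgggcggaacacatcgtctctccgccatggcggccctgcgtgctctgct
Etfa: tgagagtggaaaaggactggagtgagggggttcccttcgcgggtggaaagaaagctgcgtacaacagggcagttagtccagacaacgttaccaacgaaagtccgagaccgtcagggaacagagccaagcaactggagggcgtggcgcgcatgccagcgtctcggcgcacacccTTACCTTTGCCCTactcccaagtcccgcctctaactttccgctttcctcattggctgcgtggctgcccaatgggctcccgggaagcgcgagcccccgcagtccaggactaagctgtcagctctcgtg
On GRCm38.p6 the Slc25a20 window is chr9:108661886-108662185 on the plus strand, with the match at bases 7 to 19 after the start site. The Echs1 window is chr7:140116372-140116671 on the minus strand, with the match from base -83 to -71. The Etfa window is chr9:55512194-55512493 on the minus strand, with the match from base -77 to -65, on the opposite strand of the gene. A match is a likeness of letters and does not show binding.

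The acyl-CoA dehydrogenases divide the work by chain length. Acadm, the medium-chain enzyme and the most abundant of the 7, was 361, 356 and 354 FPKM in PBS replicates 1, 2 and 3 and 173, 266 and 270.3 FPKM in HA replicates 1, 2 and 3. The PBS values spanned only a few FPKM and the HA values lay well below them (log2 fold change -0.62, SE 0.18, limma adjusted p = 0.143). Acads, the short-chain enzyme, was 85.8, 102 and 82.7 FPKM after PBS and 58.7, 69.7 and 63.2 FPKM after HA, with no overlap (log2 fold change -0.49, SE 0.12, limma adjusted p = 0.111). Acad10, a little studied member of the family expressed at a low level, was 10.4, 11.5 and 8.70 FPKM after PBS and 5.83, 6.55 and 6.80 FPKM after HA and had the smallest adjusted p of the 7 (log2 fold change -0.59, SE 0.12, limma adjusted p = 0.0784). Acadvl and Acadl had the smallest differences of the 7. Acadvl, the very-long-chain enzyme of the inner membrane, was 214, 230.3 and 212 FPKM after PBS and 168, 201 and 184 FPKM after HA, without overlap (log2 fold change -0.25, SE 0.11, limma adjusted p = 0.285). Acadl, the long-chain enzyme, was 141 ± 1.82 FPKM (SD) after PBS, against 125 ± 30.9 FPKM after HA (n = 3 per group). For Acadl HA replicate 2, at 159 FPKM, was the highest of all libraries, as it was for Cpt1a, so HA and PBS overlapped (log2 fold change -0.20, SE 0.17, limma adjusted p = 0.575). Acad11 and Acad9 were 1.41-fold and 1.29-fold lower in the mean with HA, both without overlap, and neither passed (limma adjusted p = 0.222 and 0.195).

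In the later steps of the spiral all 5 genes had every HA value below every PBS value, against 19.2% of all genes tested. Scaled outside Alb, the groups overlapped for Acaa2. The difference was largest for Hadh. Hadh, the soluble hydroxyacyl-CoA dehydrogenase for short and medium chains, was 278, 308 and 286 FPKM in PBS replicates 1, 2 and 3 and 187, 181 and 215 FPKM in HA replicates 1, 2 and 3. The gap between the groups was wider than the range within either (log2 fold change -0.58, SE 0.11, limma adjusted p = 0.0672). Hadha, the alpha subunit of the trifunctional protein, which handles long chains, was 188, 186 and 169.7 FPKM after PBS and 121, 143 and 154 FPKM after HA (log2 fold change -0.38, SE 0.12, limma adjusted p = 0.170). Its partner Hadhb was 46.0 ± 2.14 FPKM (SD) after PBS, against 37.4 ± 6.07 FPKM after HA, also without overlap (log2 fold change -0.30, SE 0.14, limma adjusted p = 0.295). Echs1, the short-chain hydratase, was 174, 191 and 178 FPKM after PBS and 155, 144 and 141 FPKM after HA. HA replicate 1 was here the highest of the HA libraries (log2 fold change -0.30, SE 0.10, limma adjusted p = 0.178). Acaa2, the thiolase, was the most abundant of all 32 genes and had the smallest difference of the 5, at 704 ± 6.82 FPKM (SD) after PBS, against 619.7 ± 37.9 FPKM after HA, with no overlap (log2 fold change -0.19, SE 0.10, limma adjusted p = 0.376).

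Double bonds of unsaturated fatty acids need auxiliary enzymes. Eci1, the mitochondrial enoyl-CoA isomerase, was 153, 186 and 158 FPKM in PBS replicates 1, 2 and 3 and 87.0, 106 and 117 FPKM in HA replicates 1, 2 and 3, and the groups were well apart (log2 fold change -0.68, SE 0.14, limma adjusted p = 0.0785). Decr1, the dienoyl-CoA reductase, was 97.2, 99.3 and 97.8 FPKM after PBS and 55.5, 74.2 and 77.2 FPKM after HA. The PBS values lay within a few FPKM of each other, and HA replicate 1 was lowest (log2 fold change -0.52, SE 0.14, limma adjusted p = 0.127). Eci2, an isomerase found in mitochondria and peroxisomes, was 90.0, 85.2 and 91.1 FPKM after PBS and 49.1, 71.0 and 84.4 FPKM after HA. HA replicate 3 came within 1 FPKM of the lowest PBS value (log2 fold change -0.41, SE 0.19, limma adjusted p = 0.306).

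**Figure D2:**
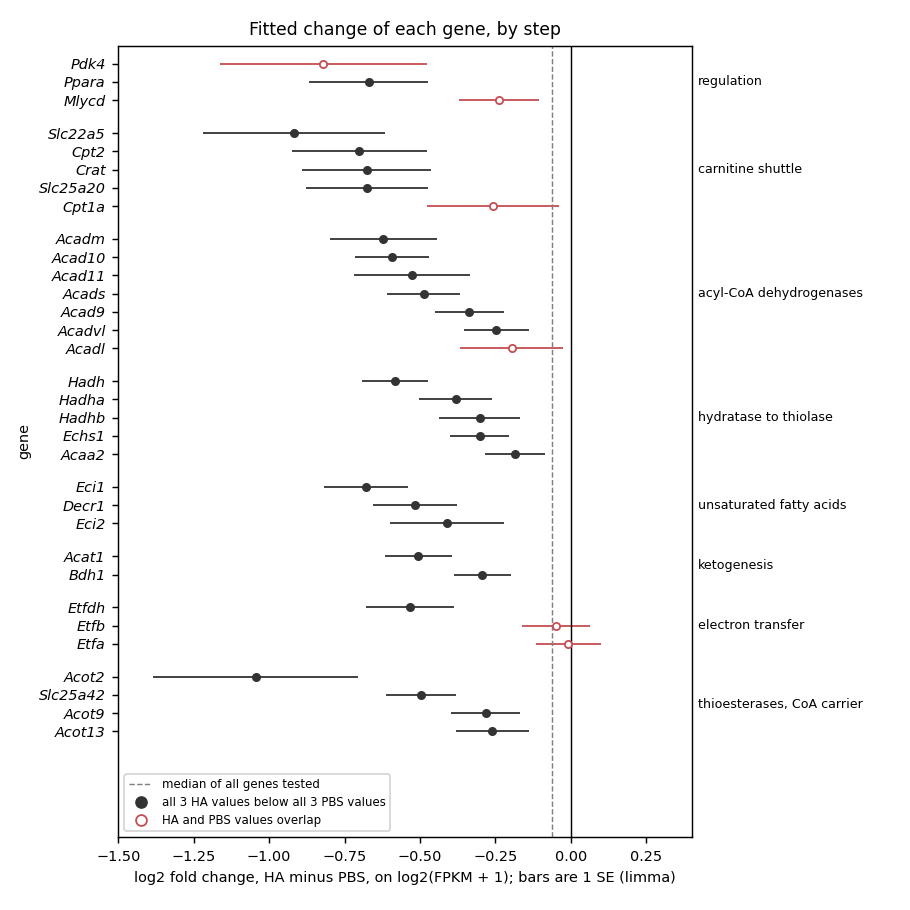
Points give the log2 fold change of each gene (HA minus PBS, limma on log2(FPKM + 1)) with bars of 1 SE, ordered within each step; filled points mark genes whose 3 HA values all lay below their 3 PBS values. All 32 points lie left of 0, from -1.04 for Acot2 to -0.01 for Etfa, and the dashed line marks the median of all genes tested, -0.06.

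Of the enzymes of ketone body synthesis, Acat1, the mitochondrial acetoacetyl-CoA thiolase that starts it, was 189, 197 and 190.1 FPKM in PBS replicates 1, 2 and 3 and 119.8, 138 and 148 FPKM in HA replicates 1, 2 and 3. The 3 PBS values were close together and all HA values lay below them (log2 fold change -0.51, SE 0.11, limma adjusted p = 0.0863). Bdh1, which turns acetoacetate into hydroxybutyrate, was 85.9, 89.7 and 83.2 FPKM after PBS and 69.0, 74.3 and 67.5 FPKM after HA. The difference was smaller than for Acat1, and the HA values were about as close together as the PBS values (log2 fold change -0.29, SE 0.09, limma adjusted p = 0.175). Of a further list of 8 genes of ketone body synthesis, use and transport, 0 passed as lower and 0 as higher (limma), and the median was -0.37. Of these 8, 3 were lower at an unadjusted limma p under 0.05, against 13.1% of all genes tested. Among them Aacs, a cytosolic enzyme that uses acetoacetate for lipid synthesis, was 15.6 ± 7.80 FPKM (SD) after PBS, against 5.96 ± 4.89 FPKM after HA and overlapped (log2 fold change -1.34, SE 0.55, limma adjusted p = 0.264).

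The subunits of ETF, Etfa and Etfb, overlapped between the groups. Etfa was 35.7, 38.8 and 41.3 FPKM in PBS replicates 1, 2 and 3 and 38.0, 41.9 and 35.2 FPKM in HA replicates 1, 2 and 3 (log2 fold change -0.01, SE 0.11, limma adjusted p = 0.972), and Etfb was 284, 314 and 301 FPKM after PBS and 259.6, 316 and 295 FPKM after HA (log2 fold change -0.05, SE 0.11, limma adjusted p = 0.845). HA replicate 2 held the highest value of both genes. These were the members with the smallest differences, and their direction turned with the scaling: after median centring the log2 fold change was 0.056 for Etfa and 0.014 for Etfb. Etfdh, the oxidoreductase that hands the electrons to ubiquinone, was 182, 189 and 171 FPKM after PBS and 103, 149 and 125 FPKM after HA, with no overlap (log2 fold change -0.53, SE 0.15, limma adjusted p = 0.132).

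Ratios between partner genes within a library do not depend on the scaling of the libraries. Their size does depend on the gene lengths behind the FPKM values. Etfa had more fragments than Etfb (12938 to 15513 against 9236 to 11337) but a lower FPKM. The ratio of Etfdh to Etfa was 5.09, 4.87 and 4.15 with PBS and 2.70, 3.56 and 3.56 with HA. The groups were apart, by -0.53 on the log2 scale (SE 0.16, n = 3 per group). The ratio of Etfdh to Etfb was 0.640, 0.601 and 0.570 with PBS and 0.396, 0.473 and 0.426 with HA, a log2 difference of -0.49 (SE 0.09). Cpt2 over Cpt1a was 0.671, 0.716 and 0.770 with PBS and 0.496, 0.522 and 0.559 with HA, a difference of -0.45 (SE 0.08), although Cpt1a itself overlapped. Acadm over Acadl was 2.59, 2.49 and 2.51 with PBS and 1.75, 1.67 and 2.29 with HA, a difference of -0.43 (SE 0.14). The choice of these 4 ratios was made with their values in view. An exact permutation test, two-sided, gave p = 0.1 for each and 0.1 after Benjamini-Hochberg adjustment over the 4, which is the smallest value that 3 against 3 samples can give, so none could pass.

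**Figure D3:**
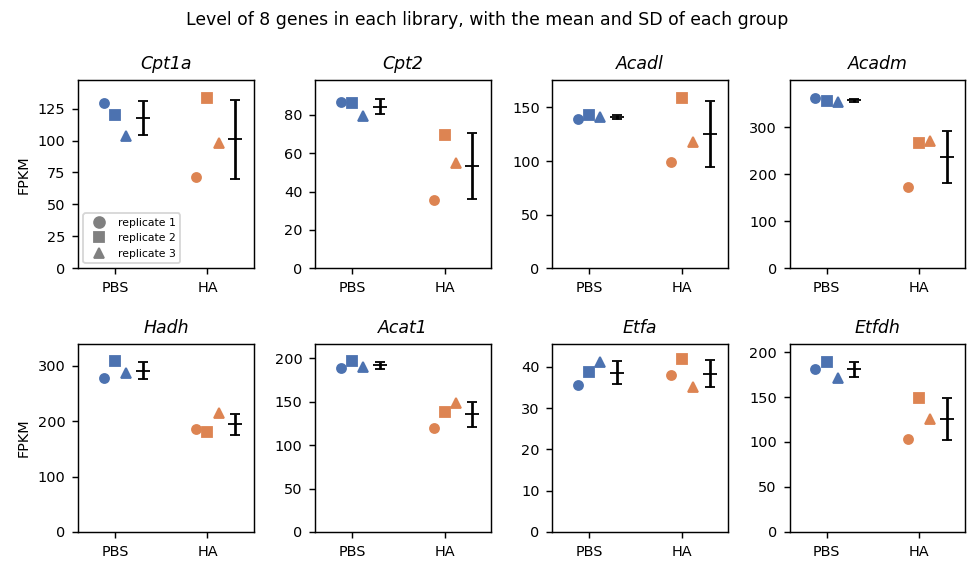
FPKM of 8 genes per library, with 1 point per library (shape gives the replicate number) and a bar for the mean ± SD of each group of 3; axes start at 0. Cpt2, Acadm, Hadh, Acat1 and Etfdh have all HA points below the PBS points, whereas in Cpt1a, Acadl and Etfa HA replicate 2 is the highest point.

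Thioesterases release the fatty acid from CoA, and Slc25a42 carries CoA into the matrix. Slc25a42 was 23.2, 23.9 and 21.9 FPKM in PBS replicates 1, 2 and 3 and 13.9, 16.3 and 18.1 FPKM in HA replicates 1, 2 and 3, with no overlap (log2 fold change -0.50, SE 0.12, limma adjusted p = 0.0975). Acot2, a mitochondrial thioesterase for long chains, had the largest log2(FPKM + 1) difference of the 32 genes, at 8.45, 7.85 and 8.41 FPKM after PBS and 1.43, 5.63 and 4.57 FPKM after HA. By the fold of the means Pdk4 differed more, 2.23-fold against 2.13-fold for Acot2. The lowest value, in HA replicate 1, rests on 124 fragments (log2 fold change -1.04, SE 0.34, limma adjusted p = 0.180). Acot2 has near-identical neighbours such as Acot1, so its level is uncertain where fragments were split between them. Acot1 was 45.5, 43.5 and 60.0 FPKM after PBS and 4.86, 33.4 and 28.1 FPKM after HA. Acot9 was 2.07, 2.55 and 2.01 FPKM after PBS and 1.91, 1.46 and 1.54 FPKM after HA (log2 fold change -0.28, SE 0.11, limma adjusted p = 0.259), and mouse Acot9 has a close copy, Acot10, with which it may share fragments. Acot13, which acts on medium and long chains, was 77.1 ± 5.21 FPKM (SD) after PBS, against 64.4 ± 8.06 FPKM after HA (n = 3 per group) and did not overlap, although HA replicate 1 lay within 1 FPKM of PBS replicate 1 (log2 fold change -0.26, SE 0.12, limma adjusted p = 0.306).

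Genes outside the list that also handle acyl-CoA were read the same way. Of 19 further genes of mitochondrial acyl-CoA metabolism 16 were tested, with a median log2 fold change of -0.36. Every HA value lay below every PBS value for 13 of the 16, against 19.2% of all genes tested, and above for 0. Of the 16, 1 fell (limma) and 0 rose, against 0.512 and 0.289% of all genes tested. The gene that fell was Hsd17b10, a dehydrogenase of isoleucine breakdown and a part of mitochondrial ribonuclease P. It was 299, 308 and 286 FPKM in PBS replicates 1, 2 and 3 and 141, 189 and 179.8 FPKM in HA replicates 1, 2 and 3 (log2 fold change -0.82, SE 0.13, limma adjusted p = 0.0462), and its call was lost when any single library other than HA replicate 2 was left out (adjusted p = 0.0607 to 0.186). Pccb, a subunit of propionyl-CoA carboxylase, was 72.9 ± 2.72 FPKM (SD) after PBS, against 53.1 ± 2.32 FPKM after HA (log2 fold change -0.45, SE 0.09, limma adjusted p = 0.0766), and Acsf2, an acyl-CoA synthetase, 71.7 ± 7.85 FPKM (SD) after PBS, against 48.2 ± 6.86 FPKM after HA (log2 fold change -0.57, SE 0.14, limma adjusted p = 0.109).

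Beta-oxidation of peroxisomes, which shortens very long chains, had a median of -0.45 over 17 genes. Of these, 2 fell and 0 rose (limma), against 0.512 and 0.289% of all genes tested. The log2 fold change was below 0 for 16 of the 17, against 62.8% of all genes. Every HA value lay below every PBS value for 10, against 19.2%, and above for 1, against 6.47%. Acaa1b, a thiolase with a near-identical copy, Acaa1a, fell 2.16-fold (log2 fold change -1.12, SE 0.16, limma adjusted p = 0.0411), a call lost when any single library other than HA replicate 2 was left out (adjusted p = 0.0676 to 0.147). Of 18 genes listed as PPARA targets, several of which are also peroxisomal, 3 fell, against 0.512% of all genes tested. Acaa1b and the fatty acid translocase Cd36 were among them, while 0 rose and the median was -0.63. Every HA value lay below every PBS value for 9 of the 18, against 19.2% of all genes tested, and above for 0. Cd36, named in the study's title, fell 2.05-fold (log2 fold change -1.03, SE 0.15, limma adjusted p = 0.0411), a call lost when HA replicate 1 or any single PBS library was left out (adjusted p = 0.0818 to 0.152).

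The omega-hydroxylases Cyp4a10 and Cyp4a14, known PPARA targets in mouse liver, had a wide spread after HA. They were named after their values were seen. Cyp4a10 was 842, 845 and 773 FPKM after PBS and 131, 1029 and 629 FPKM after HA. Cyp4a14 was 909.6, 805 and 899 FPKM after PBS and 205, 1669 and 877 FPKM after HA. For both, HA replicate 1 was the lowest and HA replicate 2 the highest of the 6 libraries, with PBS between them (limma adjusted p = 0.507 and 0.797), and both have close copies with which fragments may be shared. HA replicate 2 was also the highest for Cpt1a, Acadl, Etfa and Etfb. Of 15 tested regulators of oxidation other than Ppara, 0 fell and 0 rose, and the median was -0.02. Of the 15, 4 were lower at an unadjusted limma p under 0.05, against 13.1% of all genes tested. Pparg was 6.71 ± 0.760 FPKM (SD) after PBS, against 3.63 ± 0.887 FPKM after HA (log2 fold change -0.75, SE 0.16, limma adjusted p = 0.0840). The deacetylase gene Sirt3 was 56.3 ± 7.04 FPKM (SD) after PBS, against 43.8 ± 1.83 FPKM after HA and the corepressor gene Ncor1 7.89 ± 0.522 FPKM (SD) after PBS, against 6.26 ± 0.714 FPKM after HA (limma adjusted p = 0.188 and 0.222).

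**Figure D4:**
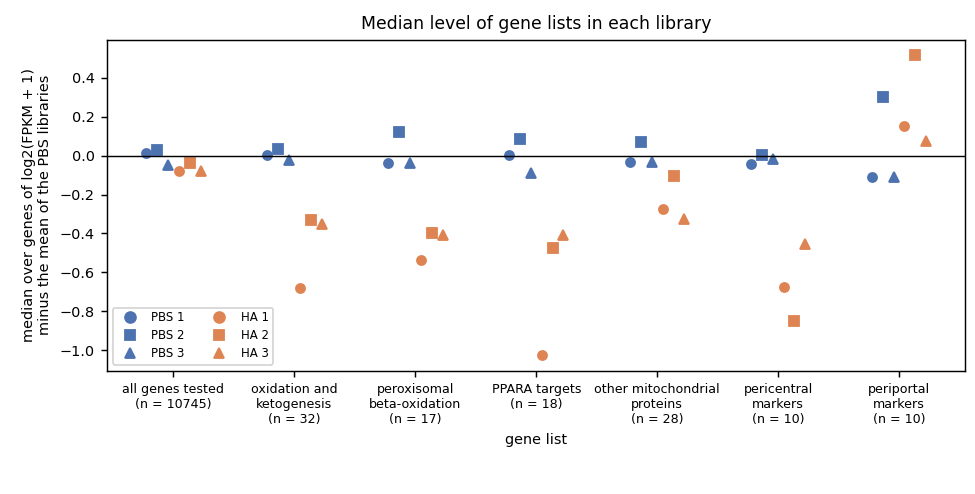
For each gene list the 6 points give, per library, the median over its genes of log2(FPKM + 1) minus the gene's mean in the PBS libraries; blue is PBS, orange is HA, and the shape gives the replicate number. The oxidation and ketogenesis genes lie at -0.68, -0.33 and -0.35 in HA replicates 1, 2 and 3, and other mitochondrial proteins at -0.27, -0.10 and -0.33.

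Mitochondrial proteins outside fatty acid oxidation, of the citric acid cycle, the respiratory chain and protein import, were counted beside the members. Of 28 such genes 27 had a log2 fold change below 0, against 62.8% of all genes tested, and 14 had every HA value below every PBS value, against 19.2%. None passed as lower (0 by limma), 11 were lower at an unadjusted p under 0.05, against 13.1%, and the median was -0.25 against -0.49 for the members. The difference between these medians was not tested. Bulk RNA does not tell fewer cells of a type from less RNA per cell. Of 10 markers of the pericentral zone of the lobule 8 had a log2 fold change below 0, against 62.8% of all genes tested. Every HA value lay below every PBS value for 8 of the 10, against 19.2% of all genes. At an unadjusted limma p under 0.05, 8 were lower, against 13.1%. Of the 10, 1 fell (limma), against 0.512% of all genes. Their median was -0.63, and their summed level was 9948 to 10472 FPKM after PBS and 3779 to 6771 FPKM after HA. By library the order of these markers depended on the summary. Their medians in HA replicates 1, 2 and 3 were -0.68, -0.85 and -0.46, lowest in HA replicate 2. Their summed levels were 3779, 5488 and 6771 FPKM, lowest in HA replicate 1, where the median of the oxidation genes was also lowest. HA replicates 1 and 2 were each the lowest HA library for 5 of the 10 markers. Oat fell (log2 fold change -1.51, SE 0.23, limma adjusted p = 0.0425), and with any 1 of the 6 libraries left out it did not pass (adjusted p = 0.0509 to 0.173). Cyp2e1 was 8142 ± 10.1 FPKM (SD) after PBS, against 4382 ± 1362 FPKM after HA. Of 10 markers of periportal hepatocytes, the zone where beta-oxidation is known to be stronger, 7 had a log2 fold change above 0 and 3 below. Their median was 0.35, and 0 passed (limma). Every HA value lay above every PBS value for 2 of them, against 6.47% of all genes tested. Their summed level overlapped, at 2289.7 to 2968 FPKM after PBS and 2875 to 3648 FPKM after HA. General hepatocyte markers had a median of 0.15 over 11 genes. The part of these zone markers in the lower level of the oxidation genes was not tested.

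Markers of other cells were summed in each library, and the groups overlapped in all sums but those of red blood cells and cholangiocytes. Markers of Kupffer cells, the liver macrophages, summed to 92.6 to 114 FPKM after PBS and 109 to 203 FPKM after HA over 8 genes. All 8 had a positive log2 fold change, and 0 passed (limma). Of the 8, 3 were higher at an unadjusted limma p under 0.05, against 4.61% of all genes tested. Red blood cell genes summed to 227 to 335 FPKM after PBS and 699 to 1319 FPKM after HA. Of 5 tested, 3 rose (limma), against 0.289% of all genes. Stellate cell markers summed to 63.1 to 106 FPKM after PBS and 68.8 to 144 FPKM after HA, sinusoidal endothelial markers to 38.7 to 54.4 FPKM after PBS and 33.1 to 53.8 FPKM after HA and cholangiocyte markers to 13.3 to 23.3 FPKM after PBS and 24.8 to 29.1 FPKM after HA. Adipocyte markers summed to 5.68 to 25.3 FPKM after PBS and 1.03 to 10.9 FPKM after HA, and Ucp1 was at 0 in 4 of the 6 libraries. The adrenal markers Hsd3b1, Cyp11a1 and Cyp11b1 were at 0 in all 5 libraries other than PBS replicate 1. The part of these cells in the members' levels was not tested. Across the 32 members the log2 fold change and the log2 level with PBS had a Pearson r of 0.32 and a Spearman rho of 0.28, a description across genes that share the same 6 libraries.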

How the data were processed

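RNA of 3 HA and 3 PBS liver samples was sequenced, and groups follow the treatment label. Per the labels' protocols, RNA was taken with TRIzol, samples had a RIN of at least 7, and 2 library kits are named without saying which was used. Per the submitters' processing notes, Trimmomatic and HISAT2 were used with GRCm39; the sources used here do not give versions, counter, annotation or use of strand. The authors deposited 1 table of FPKM values, a unit read from the values. Whole fragments were recovered from the FPKM steps: all 16638 genes (100.0%) came out whole within 0.0001, up to a possible common factor, and in simulated data 98.6% of 4000 genes were exact. No pair of libraries was a copy (chi-square per degree of freedom at least 33.5).

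limma 3.58.1 (R 4.3.3) was fitted on log2(FPKM + 1) with 1 term for treatment, a variance trend and a mean of at least 0.5 FPKM, two-sided, with Benjamini-Hochberg adjustment over 10745 genes and a threshold of 0.05. The model was tested on simulated data. Fold changes on this scale understate low genes, and folds of means are in FPKM. The members and lists were chosen with earlier results of these data known, so lists are described by counts and medians with no test. Every member of a step of 3 or fewer, and the 3 with the smallest p of a larger step, are given in all libraries, and from other lists the called genes and otherwise up to 3 by smallest p; values were added for the highest or lowest member or one that went against its step, for Acot1 as a close copy, and for Slc22a5 and Acadvl after they were seen. Alternatives were other pseudocounts, filters, scalings, voom, no trend, a replicate block and leaving out each library. Some genes of the further lists are counted but not reported by name here. No genome coordinates of the files were used; promoters are those of RefSeq on GRCm38.p6. Summaries were made in Python 3.11.15 with SciPy 1.17.1.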

Additional observations from a re-analysis of the deposited data

How the results depend on the processing

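No member passed under any of the 15 alternatives run (limma or voom); the smallest adjusted p was 0.0585, for Hadh with no variance trend. Of 480 alternative values of single members 471 kept their direction and 9 changed sign, all of Etfa or Etfb. Etfa was 0.056 after median centring, 0.077 outside Alb, 0.052 with voom on median-ratio depths and -0.072 to 0.050 without single libraries, above 0 without PBS replicate 3 or HA replicate 3. Etfb was 0.014 after median centring, 0.037 outside Alb, 0.011 with voom on median-ratio depths and -0.11 to 0.027 without single libraries, above 0 without HA replicate 1. The median of the members ran from -0.56 to -0.38 without single libraries, and was -0.41 outside Alb. Genes with every HA value below every PBS value numbered 21 after median centring and 22 on median-ratio depths (against 12.5 and 13.7% of all genes), and 26 to 30 without single libraries (against 22.1 to 28.9% of all genes), a count that cannot fall when a library is left out; these counts were added after seeing the data.

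Over all genes, 31 higher and 55 lower passed. The counts were 7 higher and 10 lower with no filter, 36 higher and 32 lower after median centring, 33 higher and 24 lower outside Alb, 28 higher and 19 lower with voom on median-ratio depths, and 1 to 46 higher and 4 to 69 lower without single libraries, a move of over 1.5 times for each library but HA replicate 2; the cause was not tested. With the replicate number as a block 7 higher and 9 lower passed. Deviations of same-numbered libraries correlated at -0.14, -0.12 and 0.18, and those of differently numbered libraries at -0.13 to 0.22. Deviations within a group of 3 sum to 0, so these values cannot decide whether the numbers pair the samples. Hsd17b10, Acaa1b, Cd36 and Oat did not pass under the block (adjusted p = 0.0586 to 0.119) or with no filter.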
